A study of Rattus norvegicus with 12 samples.

Results

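Endothelial receptors and identity genes were followed in the proximal aorta and the semilunar valves of the rat, in adult and newborn animals. The set comprised 10 listed genes: Kdr, Flt1, Tek, Tie1, Eng, Vwf, Pecam1, Cdh5, Nos3 and Gpr182. Members were all probe sets of the array annotated to exactly 1 of these symbols, which gave 13 probe sets for 9 genes among the 31099 probe sets of the table. Cdh5, which encodes VE-cadherin, is named only, since no probe set was assigned to it. Kdr and Gpr182 had 2 probe sets each, Flt1 had 3 and the other 6 genes had 1. A filter on dim probe sets (signal above 171.9, the median of all values, on at least 3 arrays) passed 11 of the 13. Each gene was represented by its brightest tested probe set unless another is named.

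RNA of Wistar rats was hybridised to 12 single-colour Affymetrix arrays, 3 in each of 4 groups. Adult valve was the aortic and pulmonary semilunar valves of adults labelled male. Neonatal valve was the same valves collected within 24 h of birth, adult aorta was the proximal aorta of adults labelled male, and neonatal aorta was the proximal aorta within 24 h of birth. No label gives a treatment or a genotype. Nor does any label state that replicate arrays stand for different animals, and p-values therefore measure only the spread between these arrays, which may be technical. Signals are MAS5 intensities on a linear scale, not comparable between probe sets. All differences are on the log2 scale with the standard error of 1 model over the 12 arrays, and a probe set was called at an adjusted p under 0.05 over the 18552 probe sets tested.

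Some labels went against each other or against the data. In 6 samples the title and source name disagree with the tissue entry and the description: arrays titled adult aorta carry the entry for neonatal valve, and arrays titled neonatal valve carry the entry for adult aorta. Groups here follow titles. The fetal growth factor transcript Igf2 read 184 to 376 in adult valve against 6189 to 8898 in neonatal valve, and 339 to 879 in adult aorta against 17222 to 20768 in neonatal aorta. All 6 valve arrays, the adults labelled male included, read 10998 to 18362 for Xist, the RNA of the inactive X chromosome, against 5.08 to 297 on the 6 aorta arrays. The Y-linked Eif2s3y read 1.39 to 134 on valve arrays against 1379 to 2557 on aorta arrays, so tissue and these sex-linked transcripts cannot be told apart. The 3'/5' signal ratio of beta-actin, a measure of how complete the labelled RNA was, ranged from 7.24 to 14.0 on valve arrays against 1.40 to 2.59 on aorta arrays, so it moved with every tissue comparison. It also moved with age in valve, at 10.6 to 14.0 in adult valve against 7.24 to 8.84 in neonatal valve, as did the GAPDH ratio (2.78 to 5.13 against 1.97 to 2.60), without overlap. In aorta the beta-actin ratio was 1.44 to 2.59 in adults against 1.40 to 1.55 in newborns, and the groups overlapped. The part of RNA quality in these comparisons was not tested. Neonatal aorta 2 and 3 lacked the added control RNAs, whose 7 probe sets read 2.52 to 54.6 there. Signals in that range are treated below as not told apart from absence.

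Endothelial cells line every vessel and cover the surface of the heart valves. Their growth and survival depend on VEGF signalling through Kdr (VEGF receptor 2), with Flt1 (VEGF receptor 1) binding the same ligand tightly and signalling weakly, and on angiopoietin signalling through Tek (Tie2) with its partner Tie1. Endoglin (Eng) is a co-receptor for TGF-beta family ligands, and von Willebrand factor (Vwf), Pecam1 and endothelial nitric oxide synthase (Nos3) are used to identify the cell type. In pieces of tissue, fewer endothelial cells and less RNA per endothelial cell cannot be told apart.

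Kdr fell with age. Its signals in adult valve and adult aorta lay below every neonatal array, and averaged over both tissues it was the only member called by age. Vwf, Eng and Gpr182 rose in adult valve relative to neonatal valve, between groups that also differed in the beta-actin 3'/5' ratio (10.6 to 14.0 in adult valve, 7.24 to 8.84 in neonatal valve). In adult animals Gpr182, Vwf, Tek and Eng were higher in valve than in aorta, by 5.50- to 5.95-fold for Eng, Tek and Vwf, and Flt1 was 3.83-fold higher on its brightest probe set but lower on another. In newborns Pecam1 was lower and Gpr182 higher in valve than in aorta.

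The counts are read against the share of all tested probe sets that passed. In valve by age, 3 of 9 genes rose and 0 fell, where 9.21% of probe sets passed, and the median member difference was 1.30 against -0.05 over 10411 genes. In aorta by age, 0 of 9 rose and 1 fell, where 7.31% passed, yet all 9 differences were below 0 with a median of -1.22 against -0.11 over all genes. In the adult tissues 5 of 9 were higher in valve, with 37.1% of probe sets passing and a median of 1.94 against -0.01. Flt1, 1 of the 5 and the gene at that median, was called lower on its probe set 1369087_at (-1.23 ± 0.34), so its place in the count depends on the probe set. In the neonatal tissues 1 was higher and 1 lower, which as a share is below the 32.6% of probe sets that passed, with a median of -0.49 against -0.06. The difference between the age difference in valve and that in aorta was above 0 in all 9 genes with a median of 1.94 against 0.06 over all genes, but 0 of 9 passed by limma, where 0.0593% of probe sets passed. An unadjusted p under 0.05 was found in 8 of the 9, against 2170 of the 18552 probe sets tested. These comparisons share groups, so their counts are not independent of each other.

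**Figure D1:**
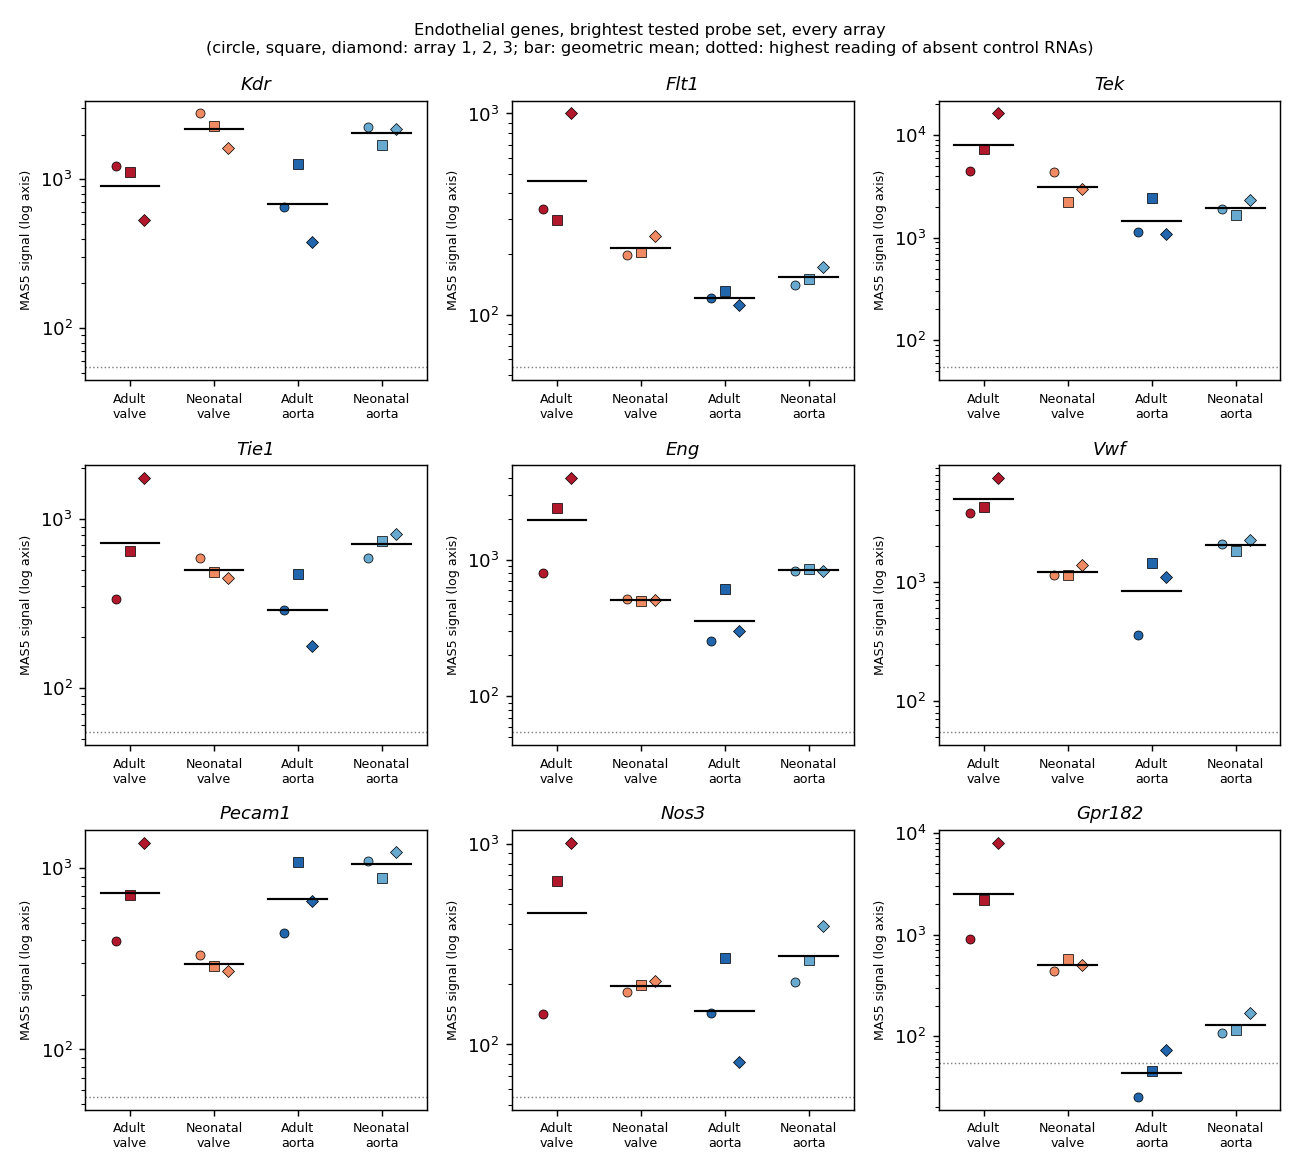
MAS5 signal (log axis) of the brightest tested probe set of each of the 9 genes on every array, in adult valve, neonatal valve, adult aorta and neonatal aorta. Symbols mark array 1, 2 and 3 of a group, the bar is the geometric mean and the dotted line the highest reading of the absent control RNAs (54.6); the 6 adult arrays of Kdr (381 to 1267) lie below its 6 neonatal arrays (1624 to 2780), and adult valve 3 is the highest array of its group in the other 8 genes.

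Promoter windows of 6 of the 9 genes were found in the RefSeq table for the GRCr8 assembly, each running from 250 bases before to 50 bases after the annotated start. The 3 shown belong to the gene that fell with age (Kdr), to a gene called in valve by age and in adult tissues (Eng), and to the gene with the largest tissue difference (Gpr182). They are Kdr at chr14:32571813-32572112 (plus strand), Eng at chr3:36332029-36332328 (plus strand) and Gpr182 at chr7:65474061-65474360 (minus strand), written 5' to 3' on the strand of the gene. Capitals mark the letters CCACCC (a KLF site) or AGGAAG (a short ETS core) on either strand; a match on the opposite strand is shown as it reads here, as the reverse complement.
Kdr: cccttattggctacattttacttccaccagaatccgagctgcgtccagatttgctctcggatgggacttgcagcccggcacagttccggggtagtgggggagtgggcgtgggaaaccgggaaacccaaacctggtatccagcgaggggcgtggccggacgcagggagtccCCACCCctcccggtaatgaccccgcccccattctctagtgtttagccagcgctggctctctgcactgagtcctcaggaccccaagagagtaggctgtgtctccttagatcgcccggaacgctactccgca
Eng: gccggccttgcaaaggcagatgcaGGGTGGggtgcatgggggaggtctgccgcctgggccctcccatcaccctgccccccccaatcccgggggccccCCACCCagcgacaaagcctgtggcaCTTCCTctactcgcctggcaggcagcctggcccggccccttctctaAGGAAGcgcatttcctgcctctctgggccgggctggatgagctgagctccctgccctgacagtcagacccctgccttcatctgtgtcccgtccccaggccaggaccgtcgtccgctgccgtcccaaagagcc
Gpr182: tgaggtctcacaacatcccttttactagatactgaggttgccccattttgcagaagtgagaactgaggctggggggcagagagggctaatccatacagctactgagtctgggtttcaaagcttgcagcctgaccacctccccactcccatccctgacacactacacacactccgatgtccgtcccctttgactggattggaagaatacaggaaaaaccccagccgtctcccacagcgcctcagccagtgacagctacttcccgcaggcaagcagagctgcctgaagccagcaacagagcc
CCACCC was found in 5 of the 6 windows (Kdr, Flt1, Tie1, Eng and Nos3) with 10 matches, and it occurs in 29.4% of the 33469 windows of the table. AGGAAG was found in 4 (Flt1, Tie1, Eng and Nos3) with 6 matches, and occurs in 34.5% of all windows. The letters ACAATG (a SOX site) occurred once, in the Nos3 window, against 13.2% of all windows. The letters CCGGAAG, a longer ETS core held by 8.75% of windows, were in none of the 6 windows of the members. A GATA site was also searched on both strands, as the letters AGATAA, and while 11.6% of all windows hold it, none of the 6 did. The Kdr window held a single match, a CCACCC at position -80 counting the start as 0, Eng held 2 matches of each of the first 2 motifs, and Gpr182 held no match of any of the 5. These are letter matches and say nothing of whether a factor binds there.

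Kdr, the main signalling receptor for VEGF-A in endothelium, separated by age in both tissues. Its signal was 1221, 1114 and 530 in adult valve, against 2780, 2269 and 1624 in neonatal valve. In aorta it was 652, 1267 and 381 in adults against 2244, 1709 and 2195 in newborns. The ranges of adult and neonatal arrays did not overlap in either tissue, while the tissues overlapped at each age. Averaged over both tissues, Kdr fell by 1.43 ± 0.30 in adults (2.69-fold, adjusted p = 0.00903), the only 1 of 9 genes called in that comparison, where 18.4% of all probe sets passed. That call held in each of the 12 fits that left out an array, and in 18 of 21 alternatives in all. It was lost with the presence of the added control RNAs as a block (adjusted p = 0.0502). It was also lost with only the arrays that have those RNAs and with the mean of a gene's probe sets. Over the 21 alternatives the difference ranged from -1.65 to -0.85.

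Within aorta the age difference of Kdr was -1.58 ± 0.43 (adjusted p = 0.0494) and within valve it was -1.28 ± 0.43 (adjusted p = 0.0866), so only the aorta passed. The difference between the tissues in this age effect was 0.30 ± 0.61 (adjusted p = 0.881), with a 95% interval of -1.03 to 1.64. The aorta call passed in 5 of 22 alternatives, with an adjusted p between 0.0212 and 0.466. Valve and aorta differed by 0.40 ± 0.43 in adults (adjusted p = 0.495) and by 0.09 ± 0.43 in newborns (adjusted p = 0.891). By geometric mean the order was neonatal valve (2172), neonatal aorta (2034), adult valve (897) and adult aorta (680), and neighbours of the same age did not differ beyond their spread. The second Kdr probe set, 1397868_at, read 7.19 to 47.0 on the 12 arrays, within the range of absent control RNAs on each, and gives no check of the first.

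Flt1, the VEGF receptor that binds its ligand tightly and signals weakly, gave opposite tissue directions by probe set. The brightest, 1377113_at, read 336, 295 and 1003 in adult valve against 197, 204 and 245 in neonatal valve. The same probe set read 120, 131 and 112 in adult aorta against 140, 149 and 172 in neonatal aorta. All valve arrays were above all aorta arrays, with a difference of 1.94 ± 0.39 in adults (adjusted p = 0.00340) and 0.49 ± 0.39 in newborns (adjusted p = 0.372). Probe set 1369087_at read 84.9, 72.0 and 137 in adult valve against 252, 235 and 182 in adult aorta, and 50.3, 37.4 and 41.7 in neonatal valve against 170, 189 and 254 in neonatal aorta. On this probe set all valve arrays were below all aorta arrays, by -1.23 ± 0.34 in adults (adjusted p = 0.0164) and -2.23 ± 0.34 in newborns (adjusted p = 0.000875). Its neonatal valve readings, and most valve readings of 1370492_a_at, were in the range of absent control RNAs, so these values do not give exact folds.

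Probe set 1370492_a_at read 39.5, 46.2 and 88.1 in adult valve against 196, 215 and 59.4 in adult aorta, which overlapped. In newborns it read 30.7, 25.6 and 21.9 in valve against 100, 206 and 252 in aorta, and the groups were apart. Its tissue difference was -2.75 ± 0.60 in newborns (adjusted p = 0.00534) and -1.32 ± 0.60 in adults (adjusted p = 0.103). Within each array the log2 ratio of 1377113_at to 1369087_at averaged 2.31 ± 0.37 in valve and -0.63 ± 0.30 in aorta (SD, n = 6 each), with ranges of 1.97 to 2.87 and -1.07 to -0.28. That ratio restates the opposite directions given above, so no test is attached to it, and the dim valve readings make its size inexact. The ratio of 1377113_at to 1370492_a_at averaged 3.07 ± 0.37 in valve and -0.17 ± 0.70 in aorta (SD, n = 6 each).

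With age 1377113_at differed by 1.11 ± 0.39 in valve (adjusted p = 0.100), which did not pass. The fit gave 1.14 ± 0.34 for 1369087_at (adjusted p = 0.0610) and 1.08 ± 0.60 for 1370492_a_at (adjusted p = 0.281), but their neonatal valve readings were all in the range of absent control RNAs, so these are not exact and show no agreement in size. Adult valve arrays lay above neonatal valve arrays on all 3 probe sets. On 1370492_a_at, however, adult valve readings of 39.5 and 46.2 were also in the range of absent control RNAs, so its order is not established. In aorta the age differences were -0.34 ± 0.39, 0.13 ± 0.34 and -0.35 ± 0.60. Any tissue direction for Flt1 therefore depends on the probe set. The split runs with the beta-actin 3'/5' ratio given above, whose part in it was not tested, and no positions of the probes in the transcript were used.

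**Figure D2:**
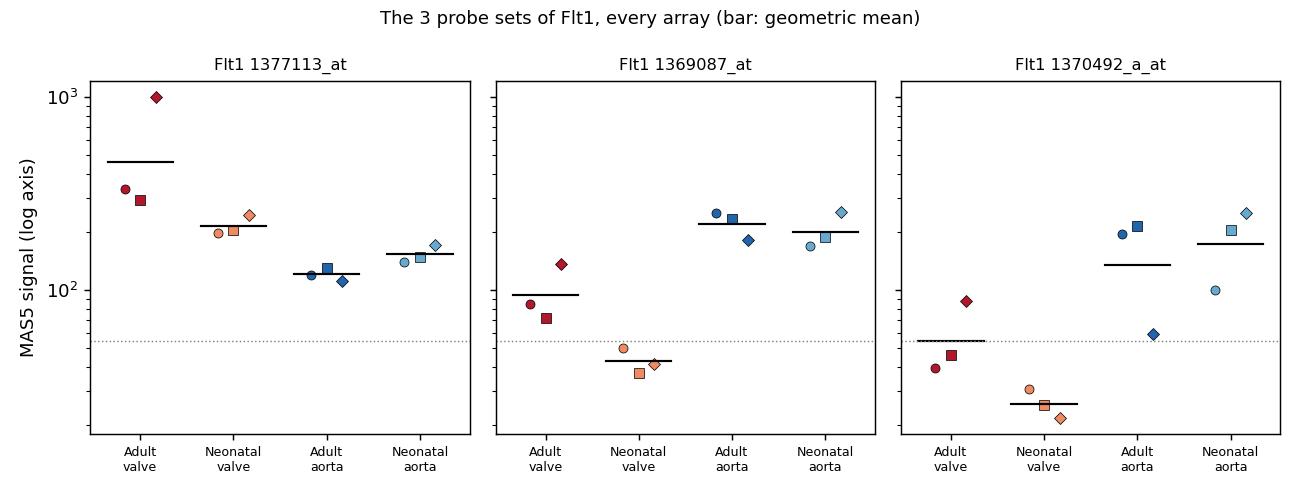
MAS5 signal (log axis) of the 3 Flt1 probe sets on every array in adult valve, neonatal valve, adult aorta and neonatal aorta, with the geometric mean as a bar and the highest reading of absent control RNAs (54.6) as a dotted line. Valve arrays lie above aorta arrays on 1377113_at and below them on 1369087_at. Adult valve lies above neonatal valve on all 3, but all neonatal valve readings of 1369087_at and 1370492_a_at are below the dotted line. Adult valve readings of 39.5 and 46.2 on 1370492_a_at are below it too, so the order on that probe set is not established.

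Tek, the angiopoietin receptor, was higher in adult valve than in adult aorta. It read 4419, 7267 and 16258 in adult valve against 1123, 2444 and 1083 in adult aorta, and the groups did not overlap. The difference was 2.49 ± 0.46 (5.60-fold, adjusted p = 0.00208) and passed in all 22 alternatives that kept the titles' groups. In newborns Tek read 4391, 2237 and 2979 in valve against 1891, 1667 and 2326 in aorta, with a difference of 0.67 ± 0.46 (adjusted p = 0.294). By age the differences were 1.39 ± 0.46 in valve (adjusted p = 0.0827), where the groups were apart by a small gap, and -0.43 ± 0.46 in aorta (adjusted p = 0.626). By geometric mean the order was adult valve (8052), neonatal valve (3082), neonatal aorta (1943) and adult aorta (1438), and the ranges of the lower 3 groups overlapped.

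Tie1, the orphan partner of Tek, passed no test. It read 335, 642 and 1741 in adult valve, a 5.20-fold range, against 584, 484 and 444 in neonatal valve. In aorta it read 290, 471 and 177 in adults against 583, 741 and 812 in newborns, and these groups did not overlap. The age differences were 0.53 ± 0.52 in valve (adjusted p = 0.560) and -1.29 ± 0.52 in aorta (adjusted p = 0.158). The tissue difference was 1.32 ± 0.52 in adults (adjusted p = 0.0646) and -0.49 ± 0.52 in newborns (adjusted p = 0.495).

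Eng, the co-receptor for TGF-beta family ligands, rose in adult valve. It read 811, 2400 and 4000 in adult valve against 518, 504 and 509 in neonatal valve, and 254, 611 and 301 in adult aorta against 830, 865 and 829 in neonatal aorta. Adult arrays were all higher in valve and all lower in aorta. The age difference was 1.96 ± 0.49 in valve (3.88-fold, adjusted p = 0.0321) and -1.22 ± 0.49 in aorta (adjusted p = 0.158). Adult valve exceeded adult aorta by 2.46 ± 0.49 (5.50-fold, adjusted p = 0.00303), and neonatal valve differed from neonatal aorta by -0.72 ± 0.49 (adjusted p = 0.285). By geometric mean the order was adult valve (1982), neonatal aorta (841), neonatal valve (510) and adult aorta (360). Without adult valve 1 the valve difference by age was 2.60 (adjusted p = 0.00454) and the adult tissue difference 3.10 (adjusted p = 0.000490). The valve call by age passed in 11 of 22 alternatives (adjusted p between 0.00454 and 0.0918), while the adult tissue call passed in all 22.

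Vwf, the platelet-binding glycoprotein stored in endothelial granules, had the lowest adjusted p among members in valve by age. It read 3805, 4282 and 7463 in adult valve against 1134, 1156 and 1398 in neonatal valve, and every adult array was above every neonatal one. In aorta it read 358, 1451 and 1109 in adults against 2099, 1808 and 2254 in newborns, again without overlap and in the opposite direction. Vwf rose by 2.02 ± 0.44 in valve (4.05-fold, adjusted p = 0.0192, past the threshold in 18 of 22 alternatives), and its difference in aorta was -1.30 ± 0.44 (adjusted p = 0.100). It was 2.57 ± 0.44 higher in adult valve than in adult aorta (5.95-fold, adjusted p = 0.00133), and 1.97 higher without adult aorta 1 (adjusted p = 0.000680). Neonatal valve differed from neonatal aorta by -0.74 ± 0.44 (adjusted p = 0.222). By geometric mean the order was adult valve (4954), neonatal aorta (2045), neonatal valve (1223) and adult aorta (833), and the ranges of the last 2 overlapped.

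Pecam1, an adhesion molecule of endothelial junctions that platelets and leukocytes also carry, differed between tissues in newborns. It read 332, 290 and 272 in neonatal valve against 1101, 879 and 1225 in neonatal aorta, with no overlap and a difference of -1.83 ± 0.42 (3.57-fold lower in valve, adjusted p = 0.00745). That call was lost with the control RNAs as a block and in the arrays that have them, where neonatal aorta is 1 array (adjusted p up to 0.136). In adults it read 395, 710 and 1378 in valve against 440, 1085 and 657 in aorta, and the groups overlapped (0.10 ± 0.42, adjusted p = 0.871). The age difference was 1.30 ± 0.42 in valve (adjusted p = 0.0783) and -0.64 ± 0.42 in aorta (adjusted p = 0.404). Of the leukocyte and platelet list, 7 of 12 genes on the array were tested. In newborns 2 were lower in valve than in aorta (Csf1r and Pf4), 28.6% called against 32.6% of all probe sets. By limma 0 were called in valve by age, aorta by age or adult tissues, against 9.21%, 7.31% and 37.1% of all probe sets. An unadjusted p under 0.05 was found in 3, 1 and 0, against 4938, 4338 and 8811 of the 18552 probe sets. Geometric means in neonatal valve against neonatal aorta were 425 against 1028 for Csf1r, 823 against 2893 for Pf4 and 244 against 489 for Cd68. They were lower in valve, as Pecam1 was. The other tested genes were higher in valve: Lyz2 5396 against 2507, Ptprc 1031 against 299, Itgb2 331 against 247 and Itga2b 207 against 173. The median difference of the list in newborns was 0.26. The summed signal of the list was 10123 to 16950 in neonatal valve against 6961 to 9933 in neonatal aorta, with 1 to 5 of the 12 genes in the range of absent control RNAs on each of the 12 arrays. The part of these cells in the Pecam1 difference was not tested.

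Nos3, which makes nitric oxide in endothelium, passed no test. It read 142, 655 and 1014 in adult valve against 182, 199 and 207 in neonatal valve, and 143, 269 and 81.7 in adult aorta against 205, 263 and 391 in neonatal aorta. The age groups overlapped in both tissues. The largest difference was between the adult tissues, 1.63 ± 0.64 (adjusted p = 0.0650), and adult valve 1 alone read below the neonatal valve arrays. Of 10 tested genes of the nitric oxide pathway, 0 passed by age in either tissue by limma, against 9.21% of all probe sets in valve and 7.31% in aorta. An unadjusted p under 0.05 was found in 0 in valve and 1 in aorta, against 4938 and 4338 of the 18552 probe sets. Nosip (0.71 ± 0.20 in newborns) and Nostrin (1.23 ± 0.39 in adults), both binding partners of Nos3, were higher in valve than in aorta.

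Gpr182, an atypical chemokine-binding receptor of endothelium, had the largest tissue difference of the members. It read 905, 2216 and 7983 in adult valve against 443, 582 and 507 in neonatal valve, and 25.2, 45.6 and 72.9 in adult aorta against 107, 116 and 169 in neonatal aorta. No groups overlapped. It rose by 2.31 ± 0.64 in adult valve relative to neonatal valve (4.97-fold, adjusted p = 0.0469, past the threshold in 6 of 22 alternatives) and was 1.99 ± 0.64 higher in neonatal valve than in neonatal aorta (3.96-fold, adjusted p = 0.0352, in 13 of 22). The valve difference by age was 3.05 without adult valve 1 (adjusted p = 0.0143) and 1.48 without adult valve 3 (adjusted p = 0.101), which ends the call. The adult tissue difference was 5.85 ± 0.64 (adjusted p = 0.000155), 5.05 after adding 32 to each signal, 6.59 without adult valve 1 and 5.02 without adult valve 3. Since 2 of 3 adult aorta readings lay in the range of absent control RNAs, that difference is not an exact fold, and the age difference in aorta of -1.55 ± 0.64 (adjusted p = 0.173) is bounded in the same way. The second probe set, 1369870_at, read 26.1, 84.2 and 126 in adult valve against 48.0, 59.7 and 8.81 in adult aorta, and 17.0 to 43.5 in neonatal valve against 39.8 to 74.7 in neonatal aorta. It was too dim for the test, and its groups overlapped in adults.

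**Figure D3:**
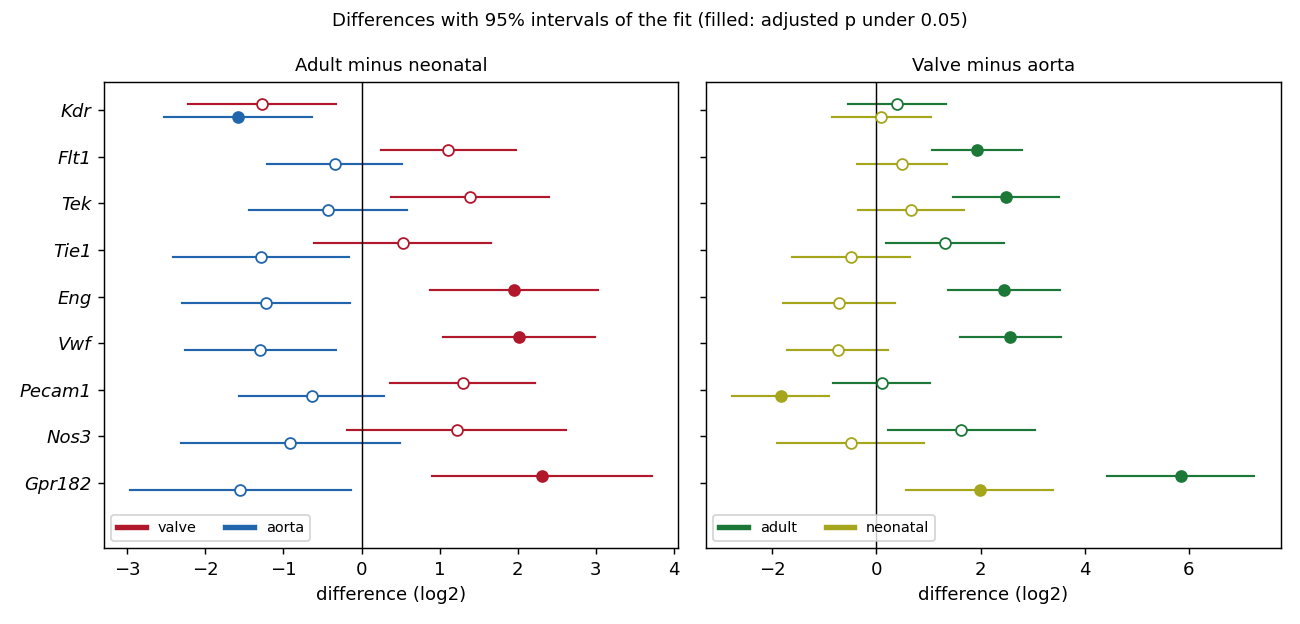
Log2 difference of each gene with the 95% interval of the fit, adult minus neonatal in valve and aorta (left) and valve minus aorta in adults and newborns (right), filled where the adjusted p was under 0.05. All 9 aorta differences by age lie below 0 and 8 of 9 valve differences above 0, Kdr being the exception at -1.28.

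Averaged over both ages, Flt1 (1377113_at), Tek, Vwf and Gpr182 were higher in valve and Pecam1 was lower, 5 of 9 genes where 49.9% of all probe sets passed. The differences were 1.21 ± 0.28 for Flt1, 1.58 ± 0.33 for Tek, 0.92 ± 0.31 for Vwf, 3.92 ± 0.45 for Gpr182 and -0.87 ± 0.30 for Pecam1. That share is near the background. On 1369087_at and 1370492_a_at, Flt1 was called lower in valve. Within 1 age, Gpr182 passed in both adults and newborns, Flt1, Tek and Vwf in adults, and Pecam1 in newborns. The age over both tissues gave differences between -0.38 and 0.48 for the 8 genes other than Kdr.

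Arrays of a group differed in how much endothelial signal they carried, and Kdr ran apart from the rest in adult valve. Adult valve 3 was the highest array of its group in 8 of 9 genes and the lowest in Kdr, and adult valve 1 was the lowest in 7. In adult aorta, array 2 was the highest in 8 of 9 genes, Kdr included, and Gpr182 was highest in array 3. The highest reading of a gene was 3.68 times its lowest in adult valve by the median over genes, against 1.24 times in neonatal valve, and 2.67 times in adult aorta against 1.39 times in neonatal aorta. After group means were removed, the 28 pairs of genes without Kdr had correlations over the 12 arrays of 0.39 to 0.93 (median 0.76). The 8 pairs with Kdr had -0.59 to 0.03 (median -0.09). These points share arrays, scaling and tissue pieces, and the values are a description.

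Ratios within an array take out what all members share on it. Within groups, however, the correlations of Kdr with the others were only -0.59 to 0.03. The log2 ratio of Kdr to Tek was lower in adults than in newborns by -2.66 in valve and -1.15 in aorta, without overlap in either tissue. Averaged over the tissues the difference was -1.90. Against Flt1 it was -1.81, against Pecam1 -1.76 and against Gpr182 -1.81. Against Tie1, Eng, Vwf and Nos3 it was -1.05 to -1.80. Kdr was singled out by its age difference on these same arrays, so no test is attached to the ratios. In aorta alone the differences against Gpr182, Vwf, Tie1 and Eng were small, -0.03 to -0.36, and the arrays overlapped.

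**Figure D4:**
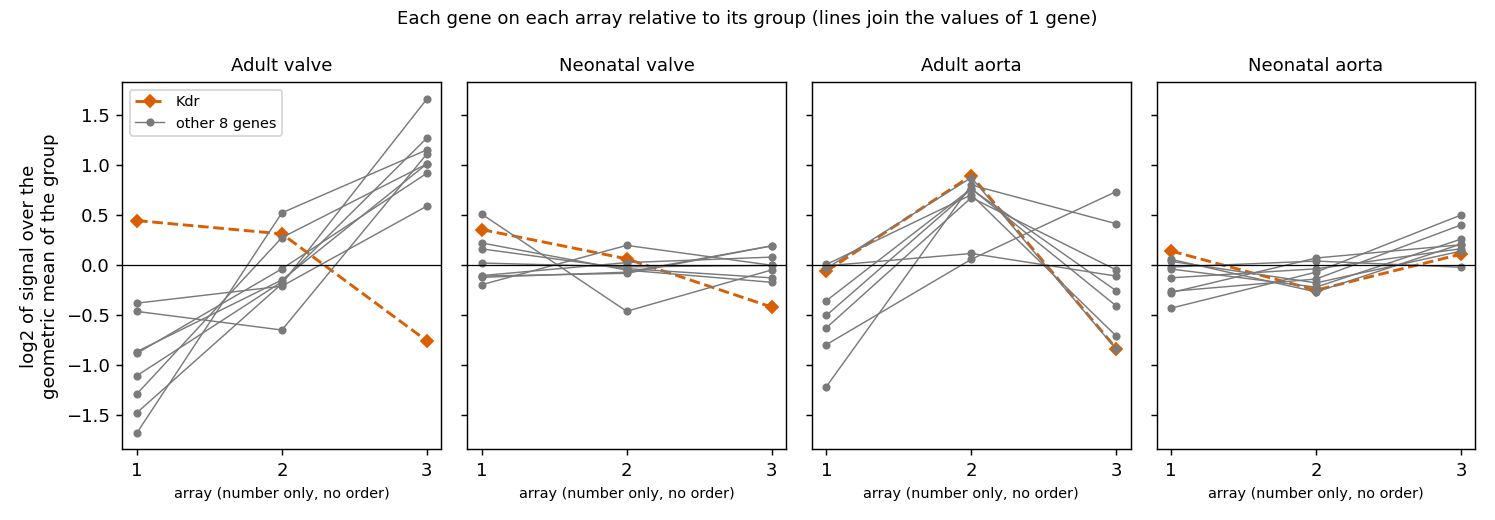
Log2 of each gene's signal over the geometric mean of its group, for the 3 arrays of adult valve, neonatal valve, adult aorta and neonatal aorta; lines join the values of 1 gene and array numbers have no order. In adult valve Kdr is lowest on array 3, where the other 8 genes are highest, while in adult aorta Kdr is highest on array 2 with 7 of the other genes.

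Other tissue in the pieces differed between the same arrays. In adult valve the summed signal of smooth muscle markers was 1560 on array 3, the lowest of 1560 to 37717, and heart muscle markers summed to 3817 there, the lowest of 3817 to 83587. Skeletal muscle (4499) and adipocyte markers (476) were also lowest on that array. Fibroblast (83506), leukocyte and platelet (19620), endocardium and valve endothelium (41421) and squamous epithelium markers (430) were highest there. Heart muscle markers summed to 75463 to 92163 in neonatal valve, and to 205 to 308 in adult aorta against 31461 to 54428 in neonatal aorta. Adipocyte markers summed to 3495 to 71989 in adult aorta against 476 to 1247 in adult valve. In newborns they summed to 5737 to 23514 in aorta against 127 to 251 in valve, where most of the list was in the range of absent control RNAs. Adult aorta 2, the highest array of its group in 8 of 9 genes, had the 71989. Adult aorta 1 had 139984 for skeletal muscle and 136845 for squamous epithelium, against at most 18025 and 645 on the other adult aorta arrays. It was the lowest array of its group in 4 of 9 genes, Vwf and Eng among them. Adult aorta 3, with 12493 for skeletal muscle and 566 for squamous epithelium, was the lowest in 5 of 9. The part of these cells in the endothelial values was not tested. Without adult valve 1, 6 of 9 genes passed in valve by age (Tek, Eng, Vwf, Pecam1, Nos3 and Gpr182), and without adult valve 3, 0 passed. The share of all probe sets that passed in those fits is not given here, so these counts are only a description.

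Ligands and partners of these receptors moved in part, on lists chosen with earlier results known. Of 6 tested VEGF and angiopoietin ligands, 1 rose and 1 fell in valve by age: Vegfc, a ligand of the lymphatic VEGF receptor, rose by 1.28 ± 0.31, and Vegfb fell by 0.96 ± 0.25. In aorta by age 0 rose and Vegfd fell by 2.32 ± 0.34. Of these 6 ligands 33.3% passed in valve by age and 16.7% in aorta by age, against 9.21% and 7.31% of all probe sets. Between tissues 33.3% passed in adults and 16.7% in newborns, against 37.1% and 32.6%. Vegfc was 2.16 ± 0.31 higher in adult valve than in adult aorta, and Vegfd was lower in valve, by -2.75 ± 0.34 in newborns and in adults by an inexact amount (fitted -1.50 ± 0.34), since 2 of 3 adult valve readings were in the range of absent control RNAs. Of 9 tested co-receptors and partners, the VEGF co-receptor Nrp1 (-1.56 ± 0.32) and Ramp2 (-1.71 ± 0.36), a subunit of the adrenomedullin receptor, fell in adult aorta. Ptprb, the phosphatase that acts on Tek, rose by 1.79 ± 0.50 in adult valve and was 3.24 ± 0.50 higher there than in adult aorta. Nrp1 (1.67 ± 0.32) and Bmpr2 (2.13 ± 0.19), a receptor of the pathway of Eng, were also higher in adult valve than in adult aorta, and Nrp2 was lower (-0.86 ± 0.31). In newborns Bmpr2 was higher in valve (1.50 ± 0.19), and Tgfbr3, Adm, Calcrl and Ramp2 were lower, with all 3 neonatal valve readings of Tgfbr3 and 1 of Calcrl in the range of absent control RNAs. In adult tissues 44.4% of these 9 partners passed against 37.1% of all probe sets, and in neonatal tissues 55.6% against 32.6%. By age 22.2% passed in aorta against 7.31%, and 11.1% in valve against 9.21%. Ramp2, Nrp2, Tgfbr3 and Adm are named to complete counts, after their values were seen.

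Other endothelial identity genes had a median above 0 in valve by age and below 0 in aorta by age, as the members did. Of 30 tested, 4 rose and 2 fell in valve by age, 20.0% against 9.21% of all probe sets, with a median of 0.82. In aorta by age 0 rose and 3 fell, 10% against 7.31%, with a median of -0.95. The risers in valve were Procr (2.01 ± 0.49), the endothelial protein C receptor, Thbd (1.78 ± 0.26), thrombomodulin, Mmrn2 (1.90 ± 0.48) and Icam1 (1.65 ± 0.37). Cldn5 (-2.09 ± 0.57), a tight junction claudin, and Aplnr, the apelin receptor, fell there; Aplnr read 1.95 to 80.2 in adult valve, partly in the range of absent control RNAs, so its fitted -4.66 ± 1.12 is not exact. In aorta Tfpi (-2.55 ± 0.39), Lyve1 (-1.94 ± 0.48) and Stab1 (-1.77 ± 0.41) fell. In the adult tissues 11 were higher in valve and 1 lower (Plxnd1, -1.47 ± 0.30), with a median of 0.82; the 40.0% called is near the 37.1% of all probe sets. The higher ones included Procr (3.36 ± 0.49), Cd93 (2.94 ± 0.33), Prox1 (2.52 ± 0.48) and S1pr1 (1.90 ± 0.35), named for their small adjusted p. In newborns 2 were higher (Cd93 and Prox1) and 7 lower, with a median of -0.63, and the 30.0% called is near the 32.6% of all probe sets. Of these names, those other than Procr, Cd93, Prox1 and S1pr1 were chosen after their values were seen.

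Of 20 tested endothelial transcription factors, 8 were higher and 1 lower in adult valve than in adult aorta, 45.0% against 37.1% of all probe sets, with a median of 1.17. Fli1 (2.50 ± 0.54), Gata2 (1.96 ± 0.49) and Hhex (1.59 ± 0.37) were among the higher, and Foxc2 was lower by an inexact amount, since it read 2.16 to 24.2 in adult valve, in the range of absent control RNAs. By age 1 rose in valve (Klf2, a factor induced by shear stress, 1.73 ± 0.37, named after its value was seen) and 0 fell, with a median of 0.83. In aorta by age 0 rose and Elk3 fell by 1.58 ± 0.39, with a median of -0.70. Both shares (5.0%) were below those of all probe sets, 9.21% in valve and 7.31% in aorta. Of 4 tested markers of endocardium and valve endothelium, all 4 were higher in adult valve than in adult aorta (Nfatc1, Cgnl1 and Cytl1 by 1.49 to 2.81, and Hapln1 by an inexact amount, with 2 of 3 adult aorta readings in the range of absent control RNAs), and Cytl1 rose by 4.47 ± 0.57 in valve by age. Their summed signal was 22582 to 41421 in adult valve, against 4207 to 6324 in neonatal valve and 2907 to 10284 in adult aorta. The share of the 4 called was 100% in adult tissues and 25.0% in valve by age, against 37.1% and 9.21% of all probe sets.

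The genes whose log2 values ran most like each member over the 12 arrays are given by Pearson's r, as a description over 4 groups of 3. Podxl and Cpne8 were nearest to Tek (r = 0.98 and 0.97), Hhex and Gata2 to Eng (0.94 and 0.93), and Tnip2 and Ccdc80 to Vwf (0.93 and 0.92). Lmo2 was nearest to both Tie1 (0.95) and Nos3 (0.94), followed by Pkn3 for Tie1 (0.91) and Eng for Nos3 (0.91). Ccm2l and Ttc14 were nearest to Pecam1 (0.96 and 0.93), Dph6 and Tprg1l to Flt1 (0.96 and 0.96), and Reg3b and Resf1 to Gpr182 (0.99 and 0.97). Pwwp3b and Pcdh17 were nearest to Kdr (0.91 and 0.89).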

How the data were processed

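The authors deposited 1 linear intensity per probe set and array, computed with MAS5 in Affymetrix Expression Console per the submitters' processing notes. Software versions: not given in the sources used here. Trizol and RNeasy columns served for extraction, and labelling was by T7 transcription, per the labels' protocols. The values show 1 scale per array, with a trimmed mean of 500.1 to 500.2. Of 31099 probe sets, 57 controls were left out; of the rest, 20826 had 1 gene symbol (20758 matched to the reference by gene ID), 436 several and 9780 none.

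Signals under 1 were set at 1 before taking log2, and arrays were not normalized again. The 18552 probe sets above 171.9, the median of all values, on at least 3 of 12 arrays were tested with limma 3.58.1 in R 4.3.3: 1 mean per group, eBayes with the trend option, 8 residual df, two-sided, Benjamini-Hochberg over all tested. The number of arrays limits the precision. Ratios of Kdr to other members within arrays are given without a test. The fit was tested on simulated data made from the real means and spreads.

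Named were all members, the 2 genes most like each by Pearson's r, and up to 4 genes per list by smallest adjusted p. The members and lists were chosen with earlier results of these data known. Alternatives were quantile or median scaling, another offset, no filter, no trend, blocks, the groups compared alone, the mean of a gene's probe sets, the tissue entries as groups, and each array left out; the closing section gives their effect.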

Additional observations from a re-analysis of the deposited data

Results flagged for a closer look

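In 4 genes, each on its brightest probe set, every adult array lay above every neonatal array in valve and below every neonatal array in aorta. For Flt1 this held on 1377113_at only. On 1369087_at, with an age difference in aorta of 0.13 ± 0.34, and on 1370492_a_at the aorta groups overlapped. The share of all probe sets with this pattern is not given here, so the count of 4 is only a description. Subtracting the aorta age difference from that of valve gave 1.45 ± 0.56 for Flt1 (1377113_at, adjusted p = 0.348), 3.18 ± 0.69 for Eng (adjusted p = 0.113), 3.31 ± 0.62 for Vwf (adjusted p = 0.0885) and 3.86 ± 0.91 for Gpr182 (adjusted p = 0.142), and limma called none of the 4. Over 21 alternatives the adjusted p ranged from 0.235 to 0.992 for Flt1, 0.0349 to 0.829 for Eng, 0.0287 to 0.813 for Vwf and 0.0499 to 0.922 for Gpr182. Vwf ranked 31 of 18552 probe sets in that comparison, where 11 passed. The adult aorta readings of Gpr182 were partly in the range of absent control RNAs, so its value is not exact.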

How the results depend on the processing

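Counts are of member genes called out of 9. The share of all probe sets called is not given for these alternatives, so changes in the counts are only a description. In aorta by age the count was 1, and 0 with median centring, no filter, the control RNAs as a block, only arrays with those RNAs, only the groups compared, no trend, or the mean of a gene's probe sets; leaving out 1 array gave 0 to 1. In valve by age it was 3, and 1 with the control block or only the groups compared, 0 with only arrays with control RNAs, and 0 to 6 with 1 array left out (0 without neonatal valve 1, neonatal valve 2 or adult valve 3). In neonatal tissues it was 2, and 0 with either control setting, 4 with only the groups compared (Eng and Vwf lower as well), and 1 to 3 with 1 array left out. In adult tissues it was 5, and 5 to 7 with 1 array left out. The difference of age differences gave 0, and 0 to 2 with 1 array left out: Vwf passed without adult aorta 1 or 2, and Eng and Gpr182 without adult valve 1. Age over both tissues gave 1, and 0 with either control setting or the mean of probe sets, and 1 to 2 with 1 array left out. Tissue over both ages gave 5, and 3 with either control setting, and 3 to 6 with 1 array left out. Only 1 neonatal aorta array has control RNAs, so those settings rest on fewer samples; other causes were not tested.

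Grouping by the tissue entry exchanges adult aorta and neonatal valve, so that each comparison takes another's arrays. The counts were then 2 in aorta by age, where 32.6% of all probe sets passed, and 5 in valve by age, where 37.1% passed. They were 1 in neonatal tissues (7.31%) and 3 in adult tissues (9.21%). Age over both tissues gave 5 (49.9%) and tissue over both ages gave 1 (18.4%). Reversed under it were Kdr (0.094 in aorta by age, -1.58 in neonatal tissues, 0.25 for age, -1.43 for tissue), Gpr182 (1.99 in aorta by age, -1.55 in neonatal tissues) and Pecam1 (-0.87 for age, 0.33 for tissue). With the mean of its 3 probe sets, Flt1 was -1.50 in neonatal tissues, -0.20 in adult tissues and -0.85 for tissue over both ages.

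Same-numbered arrays did not deviate together (median correlation 0.01, range -0.31 to 0.24, n = 18 pairs). Many of these pairs join an adult array to a neonatal array, so the correlations cannot show whether same-numbered arrays share animals. With the replicate block the counts were 1 in aorta by age, 3 in valve by age, 2 in neonatal tissues, 5 in adult tissues, 1 for age over both tissues and 6 for tissue over both ages, where Eng was added; between the age differences none was called, 0 as before.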
